A study of Mus musculus with 6 samples.

Results

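Janus kinases and STAT factors carry cytokine signals from the cell surface to the nucleus. The genes described here are Jak1, Jak2, Jak3 and Tyk2, which encode the 4 Janus kinases, and Stat2, Stat4, Stat5a, Stat5b and Stat6, which encode 5 STATs. They were taken by symbol from the table of RNA-seq counts, Stat3 being left out of the choice, and all 9 were found among its 38924 gene rows. Stat3 appears below where STAT levels are compared.

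The cells were naive CD4+ T cells from the spleens of C57 BL/6 mice, kept for 72 h in Th17 conditions. All 6 cultures were stimulated with anti-CD3 and anti-CD28 and received TGFb1, IL-6 and IL-23, so treated and control cells alike were exposed to cytokines that signal through these kinases (IL-6 and IL-23). In 3 cultures the solvent DMSO was added, and in the other 3 CX-4945, an inhibitor of the protein kinase CK2, at 2 mM by the labels, whose unit no other source here gives. The series title places the comparison in the choice between Th17 and regulatory T cells, and the design text calls the replicates biological without saying whether each came from its own mouse. Each library held 22178614 to 26148189 uniquely placed exon reads. The cultures hold activated cells in bulk, with no untreated or naive control.

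A cytokine brings together receptor chains, each holding a Janus kinase on its inner tail. The kinases phosphorylate the receptor and then a STAT, which pairs up through its SH2 domain, enters the nucleus and binds DNA. JAK1 and JAK3 serve receptors with the common gamma chain, such as those for IL-2, IL-4 and IL-7, and JAK2 and TYK2 serve the receptors for IL-12 and IL-23. In helper T cells STAT4 is known for Th1 responses to IL-12, STAT6 for Th2 responses to IL-4, the STAT5 pair for IL-2 signalling and Treg maintenance, and STAT2 for type I interferon signalling. STAT5 is known to oppose Il17a transcription at sites that STAT3 also binds. The data measure RNA, not phosphorylation or protein.

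The 3 promoters and 3 stretches of coding sequence that follow show how members with unlike or shared results differ in sequence. The promoters run from 250 bases before to 50 bases after a start in RefSeq (GRCm38.p6), and are those of Stat4, the member that changed most, of Stat5b, and of Stat2, which did not pass the test. In the first pair, capitals mark CG dinucleotides, the sites of DNA methylation in mammals.
Stat4, chr1:51986898-51987197, plus strand: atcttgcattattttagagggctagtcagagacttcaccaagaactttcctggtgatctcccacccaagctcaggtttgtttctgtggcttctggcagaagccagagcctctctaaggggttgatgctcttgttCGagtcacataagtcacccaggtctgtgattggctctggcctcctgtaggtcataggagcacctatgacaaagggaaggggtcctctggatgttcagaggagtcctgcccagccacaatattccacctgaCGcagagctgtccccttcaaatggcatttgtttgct
Stat5b, chr11:100850532-100850831, minus strand: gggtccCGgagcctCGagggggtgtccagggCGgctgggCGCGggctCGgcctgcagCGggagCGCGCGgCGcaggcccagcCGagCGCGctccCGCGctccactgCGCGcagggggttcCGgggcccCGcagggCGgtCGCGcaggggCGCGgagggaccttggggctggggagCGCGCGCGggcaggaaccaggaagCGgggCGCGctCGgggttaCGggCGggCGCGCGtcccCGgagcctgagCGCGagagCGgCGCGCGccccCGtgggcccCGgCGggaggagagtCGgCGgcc
In the promoter of Stat2, capitals mark a match to GAAANNGAAA, the core of an interferon response element, here on the opposite strand, and then a match to TTCNNNNGAA, a STAT-type palindrome.
Stat2, chr10:128270248-128270547, plus strand: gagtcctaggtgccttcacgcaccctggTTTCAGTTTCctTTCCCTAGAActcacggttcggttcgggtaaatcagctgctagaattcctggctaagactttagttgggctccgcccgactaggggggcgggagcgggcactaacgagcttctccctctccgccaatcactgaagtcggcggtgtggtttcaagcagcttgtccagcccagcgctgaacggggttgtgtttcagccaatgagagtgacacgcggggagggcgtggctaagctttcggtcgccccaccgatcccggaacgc

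The members had 12 promoters in RefSeq, and their base composition varied widely. The Stat4 promoter above held 2 CG dinucleotides and its second start 4, against a median of 7 over 32851 promoters of the same length, of which 23.3% held 2 or fewer. The Stat5b promoter above held 50, which 0.855% of promoters reached, and that of Jak2 held 44, which 2.25% reached. Jak1 had 29, Tyk2 23, Stat2 22, Jak3 9 and Stat6 8, while the 2 starts of Stat5a had 5 and 27 and the other start of Stat5b had 7. A match to TTCNNNGAA, the usual STAT palindrome, was found in 0 of the 12 promoters, and 8.30% of all promoters hold it. TTCNNNNGAA was found in 1, that of Stat2, where it began 210 bases before the start, and 6.95% of all promoters hold it. GAAANNGAAA was found in 2, in Stat2 at 222 bases before the start and at the second Stat4 start at 97 bases before it, against 3.44% of all promoters. Both strands were searched, and the matches in Stat2 do not overlap each other.

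Stat5a and Stat5b are neighbours on chromosome 11 and were compared to show how far short reads can tell them apart. The coding sequences of their first GENCODE M21 transcripts, 2379 and 2358 bases long, shared 90.7% of 2343 aligned positions. The longest identical run was 324 bases, from coding position 571 in both, and its first 120 bases are printed first. Below it stand the 60 aligned bases from coding position 85 in which the pair differed most, with the 19 differing bases in capitals.
Stat5a and Stat5b, shared: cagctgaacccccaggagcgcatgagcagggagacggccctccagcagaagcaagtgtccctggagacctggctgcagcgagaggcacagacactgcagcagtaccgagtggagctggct
Stat5a: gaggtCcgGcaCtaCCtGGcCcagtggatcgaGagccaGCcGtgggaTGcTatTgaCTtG
Stat5b: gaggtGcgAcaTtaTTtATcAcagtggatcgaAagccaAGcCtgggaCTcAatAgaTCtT
Of all 50-base windows of Stat5b coding sequence, 26.3% occurred letter for letter in Stat5a, and of all 100-base windows 11.7% did. The counts used below are of uniquely placed reads, so reads that fit both genes equally well can be missing from both. How many reads were lost from such shared stretches was not determined.

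With CX-4945, 7 of the 9 genes fell and 0 rose. Differences were tested by the quasi-likelihood F test of edgeR over the 12502 genes that passed a filter on low counts, with Benjamini-Hochberg adjustment over all of them and a threshold of 0.05. It called 31.3% of all genes lower and 30.6% higher (61.9% in either direction), so a large part of the transcriptome differed between these cultures. The median log2 fold change of CX-4945 against DMSO was −0.59 over the 9 members and −0.00286 over all genes tested. For 7 of 9 members the groups did not overlap, which was so for 69.7% of all genes, and for 34.8% in the downward direction. In bulk RNA, fewer cells of a type and less RNA per cell cannot be told apart. Of 6 T cell markers tested, 5 fell as well, and their summed level went from 2989 to 3142 CPM with DMSO to 1896 to 1933 CPM with CX-4945. CPM are uniquely placed exon reads scaled to a common library size after TMM normalization. All 3 Th17 markers fell too, with sums of 1137 to 1721 and 441 to 637 CPM. The part of either marker set in the results below was not tested.

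**Figure D1:**
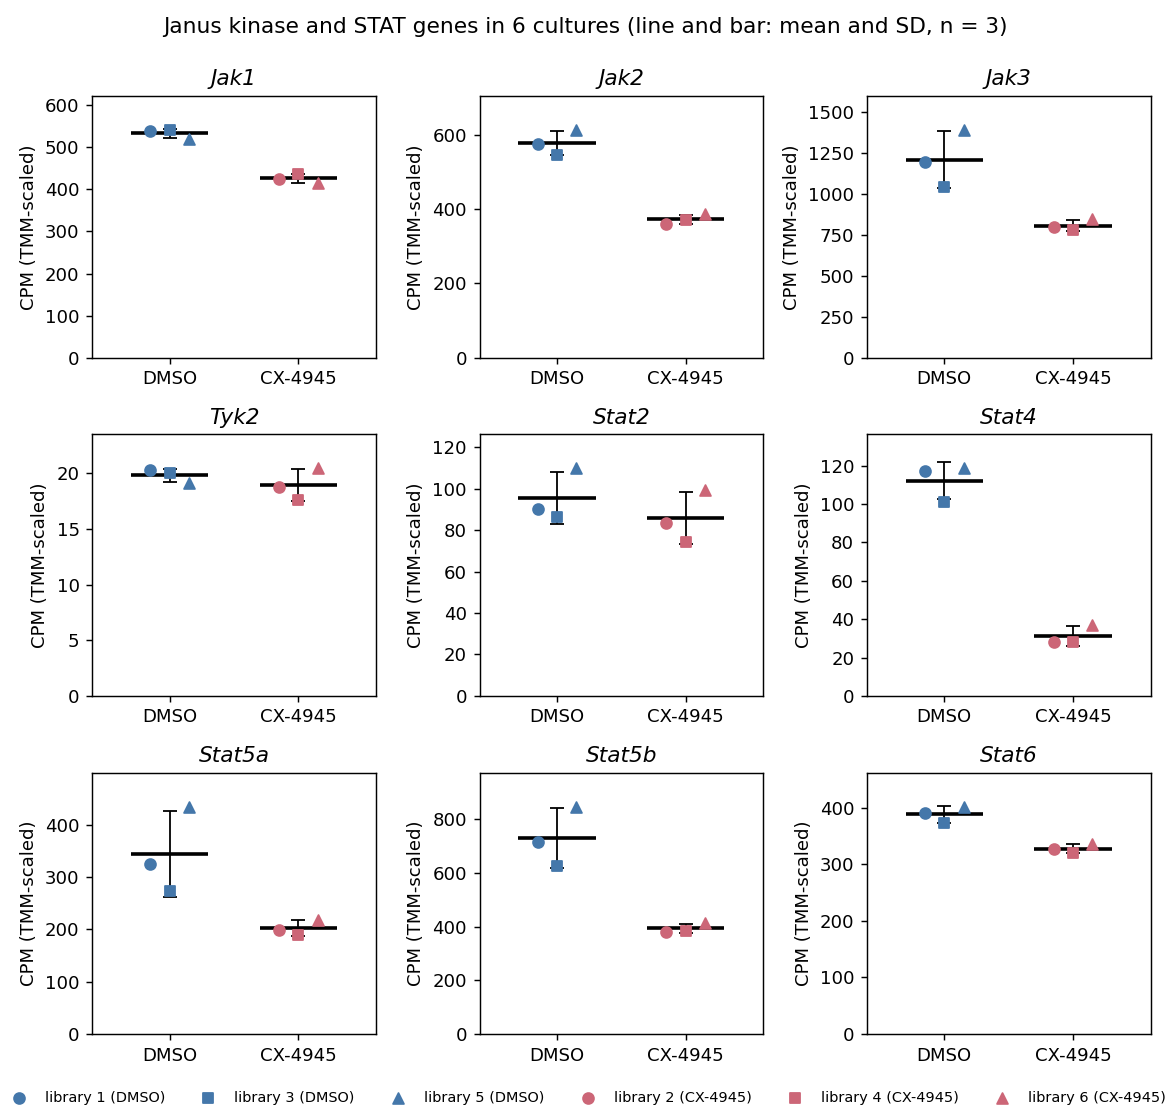
Level of each gene in every library, in TMM-scaled CPM on linear axes that start at 0, with 3 DMSO libraries (blue) and 3 CX-4945 libraries (red); the line is the mean and the bar the SD. The groups separate for 7 genes, most widely for Stat4, and overlap for Tyk2 and Stat2.

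Among the kinases, Jak1, Jak2 and Jak3 fell, whereas Tyk2 did not pass. Jak2 (chromosome 19, 29251828 to 29313080, plus strand, mm10), whose product serves the IL-12 and IL-23 receptors beside TYK2, had 574, 545 and 612 CPM in DMSO libraries 1, 3 and 5. In CX-4945 libraries 2, 4 and 6 it had 360, 370 and 386 CPM. Every DMSO value lay well above every CX-4945 value. The means were 577 ± 33.3 and 372 ± 13.2 CPM (SD, n = 3 each), a fall of 1.55-fold (log2 fold change of −0.63, SE 0.06; adjusted p = 7.29e-05 by edgeR).

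Jak3 (chromosome 8, 71676296 to 71690575, plus strand) encodes the kinase bound to the common gamma chain and is largely restricted to blood cells. Its DMSO libraries held 1192, 1043 and 1387 CPM and its CX-4945 libraries 794, 775 and 843 CPM. The DMSO libraries were spread over a wider range than the CX-4945 libraries, with library 5 highest, and the groups did not overlap. Its mean went from 1207 ± 173 to 804 ± 34.9 CPM (SD, n = 3 each), 1.50-fold lower (log2 fold change of −0.59, SE 0.10; adjusted p = 0.00119 by edgeR).

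Jak1 (chromosome 4, 101152367 to 101265282, minus strand), the kinase shared by the gamma-chain, IL-6 and interferon receptors, had 539, 541 and 521 CPM with DMSO. With CX-4945 it had 425, 437 and 416 CPM. Its replicates lay close together, with a coefficient of variation of 2.10% and 2.51%, and the groups did not overlap. The mean dropped from 534 ± 11.2 to 426 ± 10.7 CPM (SD, n = 3 each), 1.25-fold lower (log2 fold change of −0.32, SE 0.05; adjusted p = 0.00067 by edgeR). At or below that log2 fold change lay 28.3% of all genes tested, so a fall of this size was common in these libraries.

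Tyk2 (chromosome 9, 21104069 to 21127346, minus strand), the partner kinase of the IL-12, IL-23 and type I interferon receptors, had 20.3, 20.0 and 19.1 CPM with DMSO and 18.8, 17.6 and 20.4 CPM with CX-4945. The groups overlapped, and CX-4945 library 6 held the highest value of all. The log2 fold change was −0.06 ± 0.08 SE (edgeR adjusted p = 0.514). Its gene model lies wholly within 1700084C06Rik on the opposite strand, with 23278 bases of overlap, and that model held 46 reads in all. Against the authors' deposited table, whose mean RPKM for Tyk2 were 6.31 with DMSO and 6.43 with CX-4945, its uniquely placed reads amounted to 44.5% and 44.7% of what the median gene had. Unique reads therefore understate the level of Tyk2, by a like share in both groups.

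Stat4 (chromosome 1, 51987148 to 52107188, plus strand), the STAT of IL-12 and IL-23 responses, fell most of the members. It held 117, 101 and 119 CPM in the DMSO libraries and 28.3, 28.3 and 37.0 CPM in the CX-4945 libraries. The lowest DMSO library stood far above the highest CX-4945 library. The counts behind these levels were 2802, 2424 and 2798 reads, and 702, 641 and 989 reads. Its mean went from 112 ± 9.66 to 31.2 ± 5.02 CPM (SD, n = 3 each), 3.59-fold lower (log2 fold change of −1.84, SE 0.11; adjusted p = 1.88e-05 by edgeR). Of all genes tested, 352 had a lower fold change, and 2.82% lay at or below that of Stat4.

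The paralogs Stat5a and Stat5b, whose products act after IL-2, IL-7 and IL-15, both fell. Stat5b (chromosome 11, 100780731 to 100850724, minus strand) had 715, 624 and 845 CPM with DMSO and 381, 384 and 413 CPM with CX-4945. Stat5a (chromosome 11, 100859351 to 100885169, plus strand) had 324, 273 and 434 CPM with DMSO and 199, 190 and 219 CPM with CX-4945. In both genes DMSO library 5 was highest and library 3 lowest, and in neither did the groups overlap. Stat5b changed from 728 ± 111 to 393 ± 17.6 CPM (SD, n = 3 each), 1.85-fold lower (log2 fold change of −0.89, SE 0.10; adjusted p = 0.000184 by edgeR). Stat5a changed from 344 ± 82.6 to 203 ± 14.6 CPM (SD, n = 3 each), 1.70-fold lower (log2 fold change of −0.76, SE 0.15; adjusted p = 0.00265 by edgeR). The coefficient of variation of Stat5a with DMSO, 24.0%, was the highest of the members in either group.

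The ratio of Stat5b to Stat5a, in reads per length of exon, was 2.84, 2.95 and 2.51 in the DMSO libraries and 2.46, 2.60 and 2.43 in the CX-4945 libraries. The groups overlapped, and the difference of the mean log2 ratio was −0.14 (exact two-sided permutation test, p = 0.2, adjusted over 3 ratios p = 0.2). With 3 against 3 libraries that test cannot give a p under 0.1. Relative to the authors' deposited RPKM, uniquely placed reads of Stat5b stood at 83.0% and 82.7% of the median gene and those of Stat5a at 86.7% in each group. The authors' deposited mean RPKM were 104 and 60.2 for Stat5b and 36.4 and 23.0 for Stat5a, DMSO first.

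Stat6 (chromosome 10, 127642986 to 127660957, plus strand), the STAT of IL-4 and IL-13, had 391, 372 and 401 CPM with DMSO and 327, 320 and 336 CPM with CX-4945. The groups did not overlap, although the gap between them was narrow. Its mean went from 388 ± 14.99 to 327 ± 7.64 CPM (SD, n = 3 each), 1.19-fold lower (log2 fold change of −0.25, SE 0.05; adjusted p = 0.00351 by edgeR). This was the smallest of the 7 falls, and 32.6% of all genes lay at or below it.

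Stat2 (chromosome 10, 128270576 to 128292849, plus strand), which with IRF9 is part of the factor ISGF3 downstream of type I interferon, had 90.4, 86.1 and 110 CPM with DMSO. With CX-4945 it had 83.7, 74.4 and 99.5 CPM. The groups overlapped, and in each the spread between libraries exceeded the gap between the means, 95.4 ± 12.6 and 85.8 ± 12.7 CPM (SD, n = 3 each; log2 fold change of −0.15, SE 0.12; adjusted p = 0.304 by edgeR). Neither its result nor that of Tyk2 shows that the gene was unaffected.

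**Figure D2:**
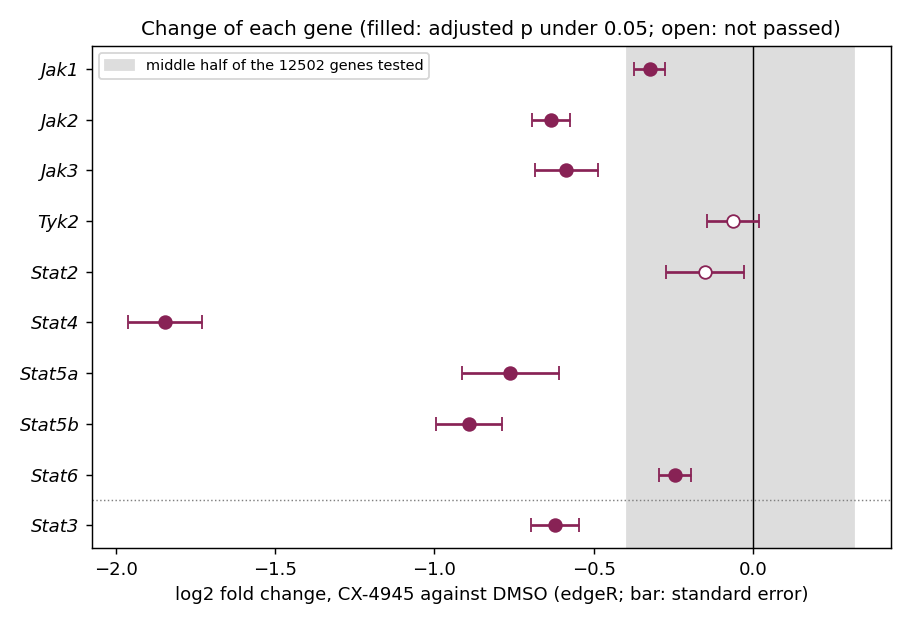
Log2 fold change of CX-4945 against DMSO for the 9 genes and, under the dotted line, Stat3, with standard errors derived from the edgeR F statistic (n = 3 each). Filled points passed an adjusted p of 0.05 and open ones did not; the grey band holds the middle 50 percent of genes tested, from −0.40 to 0.32, and Stat4 at −1.84 lies farthest from it.

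The authors' deposited table holds a test of its own on log2 values. Its corrected p was under 0.05 for 0 of the 9 genes, and for 48 of 14649 genes in all (0.328%). Its uncorrected p was under 0.05 for 6 of the 9, all but Tyk2, Stat2 and Stat5a, against 45.2% of all genes. The differences in that table had the sign of the edgeR fold changes for the 9 genes, from −1.83 for Stat4 to −0.04 for Tyk2 on the transformed scale. For Tyk2 the deposited mean RPKM went the other way, at 6.31 with DMSO and 6.43 with CX-4945.

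Levels of different genes were compared per length of exon, as RPKM from uniquely placed reads scaled by library totals. Such reads are incomplete for Stat5a and Stat5b, as given above, so their levels are understated beside those of other genes. With DMSO, Jak3 was highest at 220 ± 29.4 RPKM, followed by Stat5b at 129 ± 18.4 and Jak2 at 112 ± 5.41 RPKM (SD, n = 3 each), and these last overlapped. Below them came Stat6 at 86.2 ± 2.39, Jak1 at 72.3 ± 2.14, Stat5a at 47.1 ± 10.9 and Stat4 at 34.9 ± 2.60 RPKM (SD, n = 3 each). Stat2 had 21.2 ± 2.64 RPKM and Tyk2, whose unique reads are incomplete, 4.19 ± 0.152 RPKM (SD, n = 3 each). From Jak2 downward each gene's libraries lay above all those of the next.

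The order in unique reads differed with CX-4945. Jak3 was again highest, at 154 ± 6.71 RPKM, while Stat6, Jak2 and Stat5b, at 76.0 ± 1.82, 75.6 ± 2.63 and 72.5 ± 3.23 RPKM (SD, n = 3 each), overlapped each neighbour in that order. The place of Stat5b depends on its missing reads. In the authors' deposited mean RPKM with CX-4945 it stood above both, at 60.2 against 52.2 for Stat6 and 51.9 for Jak2. Jak1 followed at 60.3 ± 1.47 and Stat5a at 29.1 ± 2.11 RPKM (SD, n = 3 each). Stat2, at 20.0 ± 2.95 RPKM, stood above Stat4, at 10.1 ± 1.63 RPKM (SD, n = 3 each), the reverse of their order with DMSO. In every DMSO library Stat4 exceeded Stat2, and in every CX-4945 library Stat2 exceeded Stat4.

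Summed over the 4 kinases, the level went from 409 ± 32.5 to 294 ± 7.91 RPKM (SD, n = 3 each) without overlap. Within that sum Jak3 made up 53.7% with DMSO and 52.3% with CX-4945, Jak1 17.8% and 20.5%, and Jak2 27.5% and 25.7%. The shares of Jak2 and of Tyk2 (1.03% and 1.43%) did not overlap between the groups, while those of Jak1 and Jak3 did. The 5 STATs and Stat3 summed to 474 ± 50.6 and 314 ± 9.99 RPKM (SD, n = 3 each). Stat4 went from 7.38% to 3.22% of that sum and Stat5b from 27.0% to 23.1%, and Stat6 went from 18.3% to 24.3% and Stat2 from 4.47% to 6.35%, all without overlap. Stat3, the STAT of IL-6 and IL-23, held the largest of these 6 shares in unique reads, which are incomplete for Stat5b. The Stat3 shares of 32.9% and 33.8% overlapped, as did those of Stat5a, 9.85% and 9.26%. These shares were not tested. Those of Tyk2, Stat5a and Stat5b are understated, since their unique reads are incomplete.

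**Figure D3:**
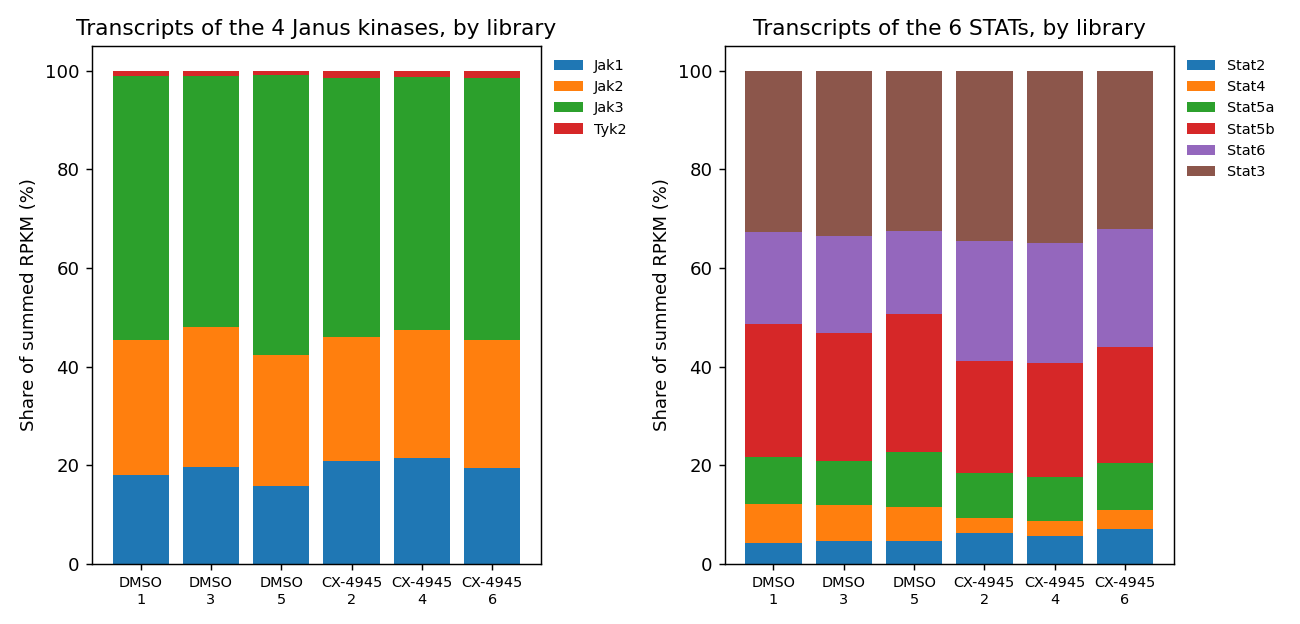
Share of each gene in the summed RPKM of the 4 Janus kinases (left) and of 6 STATs, the 5 members and Stat3 (right), in percent, as one stacked bar per library, DMSO before CX-4945. The kinase bars look alike in all 6 libraries, with Jak3 above 50 percent, while the Stat4 segment shrinks from 7.38 to 3.22 percent on average.

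Kinases that work in pairs were compared as ratios per length. The ratio of Jak3 to Jak1, the gamma-chain pair, was 2.98, 2.60 and 3.60 with DMSO and 2.52, 2.39 and 2.74 with CX-4945, and the groups overlapped (log2 difference −0.25, exact two-sided permutation test, p = 0.2). The ratio of Tyk2 to Jak2 was 0.0384, 0.0400 and 0.0340 with DMSO and 0.0569, 0.0518 and 0.0577 with CX-4945. It was higher in all 3 CX-4945 libraries, with a log2 difference of 0.57 and the smallest p the design allows (exact two-sided permutation test, p = 0.1, adjusted over 3 ratios p = 0.2). The size of this ratio is understated in both groups, since unique reads of Tyk2 stood at 44.5% and 44.7% of the median gene.

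The rest of the pathway was read from lists of receptors, ligands, inhibitors, adaptors and target genes. They named 128 genes, of which 102 were tested. Of these, 56 fell, 22 rose and 24 did not pass, with a median log2 fold change of −0.25. Over all genes tested, 31.3% were lower and 30.6% higher. A gene with few reads could pass the filter through the libraries of either group alone. Il3, Il13 and Lepr did so through DMSO, and Lifr, Prlr, Oas2, Oasl1 and Oasl2 through CX-4945. The calls of such genes give no direction for their lists. At a stricter filter of 5 CPM in 3 libraries the count of rises was 11.

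In each receptor list more genes fell than rose, beside 31.3% lower and 30.6% higher over all genes tested. Of 7 tested chains of gamma-chain receptors, 6 fell, led by Il7r, the IL-7 receptor, which had 260 ± 24.1 and 75.9 ± 4.56 CPM (SD, n = 3 each; 3.42-fold lower, edgeR adjusted p = 1.07e-05). Il4ra fell 1.53-fold, Il2rb 1.42-fold and Il21r 1.42-fold. Il2rg, the common gamma chain itself and the partner of JAK3, fell from 25.4 to 19.8 CPM (log2 fold change of −0.36, SE 0.07; adjusted p = 0.00349 by edgeR). Its unique reads stood at 5.91% and 5.89% of the median gene relative to the authors' deposited RPKM of 118 and 99.0, so its level in CPM is far understated; it was named after its values were seen. Among 10 receptor chains of the IL-6, IL-12 and IL-10 families, 7 fell and 2 rose. Il23r, the specific chain of the IL-23 receptor that holds JAK2, fell 9.71-fold, and Il12rb2, the JAK2-binding chain of the IL-12 receptor, fell 3.68-fold. Il12rb1, the chain shared by both receptors, which holds TYK2, fell 2.15-fold, and Il10ra, which holds JAK1, 1.97-fold. The exceptions were Il10rb, a TYK2-binding chain, which rose 1.34-fold, and Lifr, which rose with only 5 to 8 reads in DMSO libraries and 20 to 26 in CX-4945 libraries.

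For interferon, both chains of the interferon-gamma receptor fell, Ifngr1 2.07-fold from 352 ± 10.6 to 170 ± 24.3 CPM (SD, n = 3 each; edgeR adjusted p = 6.09e-05), and Ifngr2 with a log2 fold change of −0.18 ± 0.05 SE (edgeR adjusted p = 0.0113). The Ifngr2 call was lost without CX-4945 library 2 (adjusted p = 0.0505) and with library totals in place of TMM (0.0642). The type I receptor chains Ifnar1 and Ifnar2, named after their values were seen, did not pass, with log2 fold changes of −0.12 ± 0.06 and −0.17 ± 0.08 SE (edgeR adjusted p = 0.135 and 0.119). Ifnar1 passed when CX-4945 library 6 was left out (adjusted p = 0.0493), and Ifnar2 when DMSO library 3 was (0.0153). Of 9 receptors of myeloid and hormone cytokines, 6 fell and 1 rose, beside 31.3% lower and 30.6% higher over all genes tested. Among the falls were Il13ra1, a second receptor chain for IL-4 and IL-13, 5.81-fold, Csf2ra 1.80-fold and Crlf2 1.66-fold. Lepr fell from 29 to 48 reads a library to 2 to 7. Prlr rose, from 8 to 14 reads to 17 to 35, a call that was lost on leaving out DMSO library 1 (adjusted p = 0.0633), DMSO library 5 (0.062) or CX-4945 library 6 (0.0774), and with DESeq2 (0.0578).

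Of 13 ligand genes tested, 8 fell and 2 rose, beside 31.3% lower and 30.6% higher over all genes tested. On leaving out CX-4945 library 2 or 4, or DMSO library 1, the falls numbered 5. Lif fell 1.58-fold from 714 ± 31.4 to 453 ± 68.9 CPM (SD, n = 3 each; edgeR adjusted p = 0.00084), and Clcf1, also of the IL-6 family, 1.64-fold. Il3 fell from 19 to 24 reads a library to 1 to 5. Il9, a gamma-chain cytokine, rose 18.8-fold, from 0.784 ± 0.137 to 14.8 ± 2.50 CPM (SD, n = 3 each; edgeR adjusted p = 1.13e-05), and Csf2 rose 2.03-fold from a level near 1.30 CPM.

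Of 19 inhibitors of the pathway 7 fell and 6 rose, shares near the 31.3% and 30.6% of all genes tested, with a median log2 fold change of −0.01. Socs3, which blocks JAK2 at the IL-6 receptor, fell 1.70-fold from 758 ± 130 to 447 ± 14.8 CPM (SD, n = 3 each; edgeR adjusted p = 0.00061). Socs2 rose 2.46-fold from 118 ± 25.7 to 291 ± 3.18 CPM (SD, n = 3 each; edgeR adjusted p = 0.000102), Socs4 rose 1.54-fold and Ptpn11, the phosphatase SHP2, 1.27-fold. Without CX-4945 library 2 or DMSO library 1 the counts were 4 lower and 3 higher. Socs7 rose by a log2 fold change of 0.18, which no longer passed when CX-4945 library 2 (adjusted p = 0.0534) or DMSO library 1 (0.0713) was left out. Usp18 rose by 1.05 on the log2 scale and lost its call without CX-4945 library 2 (adjusted p = 0.0567) or 6 (0.0839), or DMSO library 1 (0.0808) or 3 (0.0521), and with limma-voom (0.059). Sh2b3 rose by 0.17 on the log2 scale, a call lost without any library but CX-4945 library 4 (adjusted p 0.05 to 0.16), and with DESeq2, limma-voom, upper quartile scaling, the 5 CPM filter or no filter (0.0508 to 0.0651). Among 10 adaptors and chaperones, 5 fell and 4 rose. Jakmip1, named for its binding to Janus kinases, fell 3.11-fold. Hsp90aa1, a chaperone whose known clients include JAK2, rose 1.23-fold from 143 to 177 CPM, Nmi 1.69-fold and Irf9, the partner of STAT2, 1.23-fold. The other HSP90 gene on the list, Hsp90ab1, was far more abundant and fell from 5035 to 4444 CPM (edgeR adjusted p = 0.0319). It was named after its values were seen. Stam2 rose by a log2 fold change of 0.19, a call lost without any library but DMSO library 3 (adjusted p 0.0655 to 0.123), and with DESeq2, upper quartile scaling, the 5 CPM filter or no filter (0.0517 to 0.0713). The falls numbered 1 on leaving out CX-4945 library 2 or 4, or DMSO library 1, and 3 on leaving out DMSO library 5; with library totals in place of TMM they numbered 2.

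**Figure D4:**
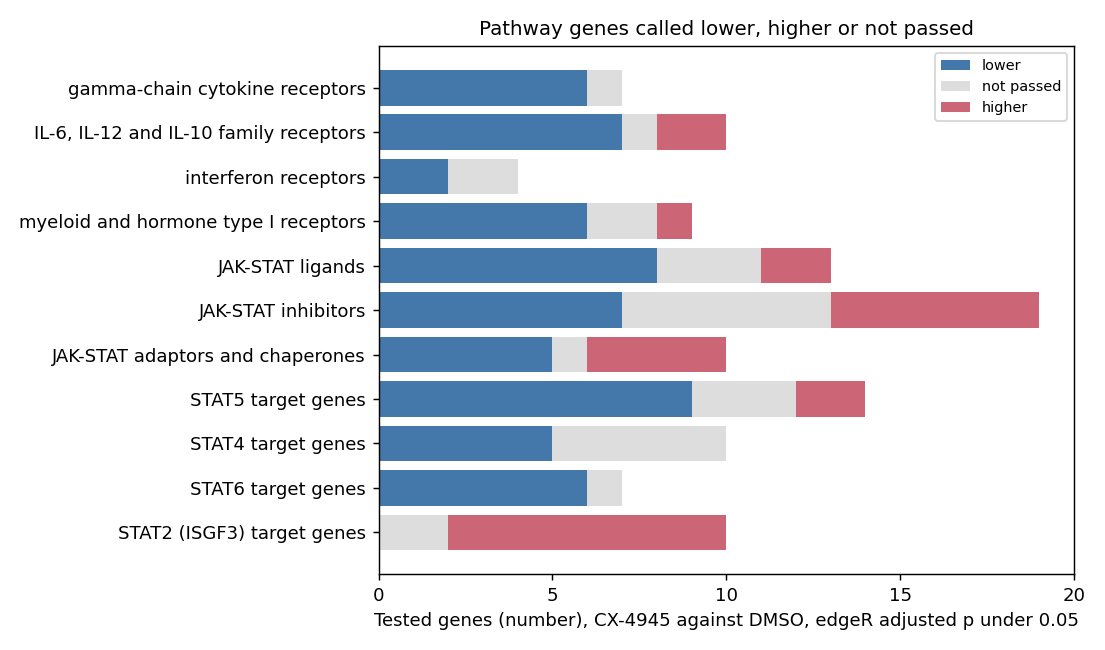
Number of tested genes in each pathway list that were lower (blue), not passed (grey) or higher (red) in CX-4945 by edgeR at an adjusted p under 0.05. Gamma-chain receptors show 6 falls of 7 tested, and inhibitors 7 falls and 6 rises of 19, beside 31.3% lower and 30.6% higher over all genes; the bar of STAT2 targets holds 10 of 18 genes, which could pass the filter through the treated libraries alone, and gives no direction.

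Known target genes of the STATs moved in different ways. The counts below stand beside 31.3% lower and 30.6% higher over all genes tested. Of 10 STAT4 targets, 5 fell, 0 rose and 5 did not pass. Il12rb2, given above, had 328 ± 50.6 and 89.2 ± 23.9 CPM (SD, n = 3 each), Map3k8 fell 1.76-fold, Tbx21, the Th1 factor T-bet, 1.55-fold and Irf1 by a log2 fold change of −0.35. Of 7 STAT6 targets, 6 fell with a median log2 fold change of −0.62, among them Batf 1.50-fold, Gfi1 1.53-fold and Il24 1.96-fold. Il13, another of the 6, passed the filter through DMSO alone. The STAT6 target falls numbered 4 with the 5 CPM filter, and also without CX-4945 library 2, CX-4945 library 4 or DMSO library 1. Of 14 STAT5 targets, 9 fell and 2 rose, and 5 fell without CX-4945 library 2. Gzmb, the protease granzyme B, fell 2.39-fold and Ccnd2, a D-type cyclin, 1.44-fold. Il2ra, the alpha chain of the IL-2 receptor, fell from 3046 ± 32.8 to 2563 ± 154 CPM (SD, n = 3 each; edgeR adjusted p = 0.00857, 0.0556 without CX-4945 library 2). Lta rose 2.39-fold beside Socs2. Cish, a feedback inhibitor induced by STAT5, had 163, 168 and 178 CPM with DMSO and 168, 155 and 183 CPM with CX-4945, with overlapping groups (log2 fold change of −0.01, SE 0.07; adjusted p = 0.935 by edgeR); Il2ra and Cish were named after their values were seen.

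Of 18 targets of STAT2 as part of ISGF3, 10 passed the filter, and 8 of those passed the test as higher. A gene could pass the filter through the treated libraries alone, so this count gives no direction for the list. Xaf1 had 19, 21 and 16 reads in the DMSO libraries and 91, 37 and 193 in the treated ones, Oasl2 had 4, 3 and 3 against 20, 17 and 52, Oasl1 6, 3 and 4 against 33, 13 and 60, and Oas2 2, 7 and 9 against 26, 21 and 61. In each of the 4, CX-4945 library 4 was lowest and library 6 highest of the treated cultures. Summed over the list, the level was 156, 148 and 151 CPM with DMSO and 183, 155 and 243 CPM with CX-4945, which overlapped. Stat2 itself had the same order among CX-4945 libraries, with library 4 lowest and library 6 highest. With a filter of 5 CPM in 3 libraries the rises on this list numbered 2, and with no filter 13.

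Stat4 was the member with the largest change, and the genes most like it across libraries were found by Pearson's r of log2 CPM over the 6 libraries. The closest were Abcb9, a transporter of lysosomal membranes (11.2-fold lower), Hk1, a hexokinase (1.88-fold lower), and Bnip3, a mitochondrial protein of hypoxic cells (2.53-fold lower), each with r rounding to 1.00. In all, 394 genes had an r of at least 0.99. These libraries form 2 groups, and a gene that separates them as Stat4 does has a high r for that reason alone, so the values are descriptive. Among the members r with Stat4 was 0.99 for Jak2, 0.98 for Stat6 and Stat5b, 0.95 for Jak1 and Jak3, 0.91 for Stat5a, 0.54 for Stat2 and 0.53 for Tyk2.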

How the data were processed

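RNA from 6 cultures was measured, 3 per group. Total RNA was extracted with Trizol and sequenced by Genewiz on the Illumina platform, per the labels' protocols. Reads were placed on mm10, according to the submitters' processing notes; for the aligner, the counting options and the use of strand nothing is given in the sources used here. The deposited table held, per the file headers, unique exon reads (raw counts per gene and library) and the authors' group means in RPKM with a t-test; 84 further columns of per-library values stayed unused. The libraries bear the table's numbers, since no label ties a column to a numbered replicate.

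Counts of 22178614 to 26148189 reads per library were tested with edgeR 4.0.16 (filterByExpr, minimum count 10 and total 15; TMM factors 0.971 to 1.02; quasi-likelihood F test, two-sided). Where a gene has 0 reads, up to 3 are allowed by counting error alone, or 0.115 to 0.135 CPM. Each SE of an edgeR log2 fold change is its absolute value divided by the square root of the F statistic. Replicates varied with a common biological coefficient of variation of 8.55%. The software was R 4.3.3 with limma 3.58.1 and DESeq2 1.42.0, and Python 3.11.15 with matplotlib 3.10.9 and pandas 2.3.3; the test was tested on simulated data.

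Markers of other cells had low sums in all libraries, with CX-4945 against DMSO at 8.05 to 8.95 against 8.85 to 12.9 CPM for B cells, 16.4 to 30.6 against 10.0 to 16.4 for macrophages (3 of 4 markers in the table), 3.52 to 7.16 against 7.08 to 8.30 for dendritic cells, 5.04 to 5.91 against 4.28 to 4.71 for NK cells and 14.2 to 23.1 against 19.9 to 27.9 for CD8 T cells; 0 of the markers were at 0 in every library.

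Results of 1 gene are not reported here. The members and lists were chosen with earlier results of these data known. Named were the members, up to 4 called genes per list by adjusted p, called genes against a list's majority, neighbours, and the 3 genes most like Stat4. Promoters came from RefSeq (GRCm38.p6, all 9 members matched) and coding sequences from GENCODE M21. Alternatives were DESeq2, limma-voom, other scalings and filters, and leaving out each library.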

Additional observations from a re-analysis of the deposited data

How the results depend on the processing

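All 9 members kept their direction and their side of the threshold under each of 12 alternatives (DESeq2, limma-voom, library totals, upper quartile, 2 filters, and each library left out). The 7 falls had adjusted p of at most 0.0235, reached by Stat6 without CX-4945 library 2, and 0.0151 for Stat5a without library 4. Stat4 ranged from −1.99 to −1.78 on the log2 scale, Stat5b from −0.99 to −0.77 and Stat5a from −0.90 to −0.56, the last without DMSO library 5. Stat2 ranged from −0.27 to −0.04 and Tyk2 from −0.12 to 0.00. Over the pathway lists the falls numbered 41 to 57 and the rises 17 to 26 when a library was left out. With at least 5 CPM in 3 libraries the rises were 11. Fewer genes were tested under that filter, and Sh2b3 and Stam2, still tested, lost their calls (edgeR adjusted p = 0.0643 and 0.059). Cish turned positive with library totals (0.056) and on leaving out DMSO library 5 (0.028) or CX-4945 library 4 (0.052), ranged from −0.069 to 0.052 over the libraries left out, and passed in 0 of these; the cause was not tested. No paired analysis was possible because the columns carry the table's own numbers and not the replicate numbers of the labels. Total exon reads in place of unique ones, and reads outside exons, were planned and not run, since unique exon reads were the only measure per library used.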

Other observations

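Of 15 tested genes nearest to a member on its chromosome that neither overlap it nor are members, 8 fell, 3 rose and 4 did not pass. Over all genes tested, 31.3% were lower and 30.6% higher. Some of the 15 lie far away, such as Pgm2 at 1165073 bases from Jak1. Stat5b and Stat5a face away from each other 8627 bases apart, and the end of Stat5a overlaps that of Stat3 by 72 bases on the opposite strand; beyond these genes Ghdc and Ptrf fell as well, with log2 fold changes of −0.73 ± 0.10 and −2.44 ± 0.24 SE (edgeR adjusted p = 0.000329 and 8.07e-05). Beside Jak2, Insl6 fell (log2 fold change −1.43 ± 0.17 SE) and Rcl1 rose (0.32 ± 0.08 SE; edgeR adjusted p = 0.00019 and 0.00705). Raver1 rose and Cdc37 did not pass on either side of Tyk2 (log2 fold changes 0.23 ± 0.06 and −0.09 ± 0.06 SE, edgeR adjusted p = 0.00856 and 0.193). Apon and Pan2, on either side of Stat2, did not pass, with log2 fold changes of 1.01 ± 0.51 and −0.02 ± 0.09 SE (edgeR adjusted p = 0.116 and 0.845). Stat6 overlaps Nab2 by 40 bases on the opposite strand (log2 fold change of −0.07, SE 0.06; adjusted p = 0.38 by edgeR), and Jak1 overlaps Raver2 by 4 bases (0.56 ± 0.18 SE, edgeR adjusted p = 0.0227). The models Insl3, within Jak3, and Gm3940, within Stat4, held 0 reads.

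Among DMSO libraries, 7 of the 9 were highest in library 5, where 39.8% of all genes tested were highest, and 7 were lowest in library 3, against 38.9%. Among CX-4945 libraries, 8 of the 9 were highest in library 6, against 39.7% of all genes tested. These same libraries, 5 and 6, had the lowest sums of the Th17 markers in their groups, 1137 and 441 CPM. The part of that marker difference in the members' spread was not tested.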
